A study of Apis cerana with 9 samples.

Results

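The 41 genes described here are those of the *A. cerana* gene table whose description names an elongase of very long chain fatty acids, a fatty acyl-CoA reductase, a desaturase, a fatty acid synthase or acetyl-CoA carboxylase. They are 41 of 12757 genes and comprise 15 elongases, 11 fatty acyl-CoA reductases, 12 desaturases, 2 fatty acid synthases and 1 acetyl-CoA carboxylase. RNA was sequenced from the proboscis, the sucking mouthpart of the bee, in 9 libraries. Per the sample labels the bees were without pollen (non-pollen, n = 3), loaded with pear pollen (pear, n = 3) or loaded with rapeseed pollen (rapeseed, n = 3). The labels give no age, strain or colony and do not state how many bees or pools stand behind a group, so p-values cover only the spread among these samples, which may be technical. The comparisons ask whether the pollen-carrying groups differed from the non-pollen group, and from each other, in the transcripts of these enzymes.

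Acetyl-CoA carboxylase makes malonyl-CoA, from which fatty acid synthase builds long-chain fatty acids. Elongases of the endoplasmic reticulum catalyse the condensing step that lengthens these chains further, and desaturases introduce double bonds. Fatty acyl-CoA reductases turn the activated acids into fatty alcohols and, in insects, supply the aldehydes from which P450 enzymes of the CYP4G subfamily form cuticular hydrocarbons, which waterproof the cuticle and serve in nestmate recognition. Among the desaturases, sphingolipid delta(4)-desaturase DES1 (LOC108000422) acts on ceramide precursors and cholesterol 7-desaturase (LOC108001271) on sterols, so both share the word in their description but not the pathway.

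Of the 41 genes, 28 reached an FPKM (fragment count scaled by gene length and library size) of 1 in 3 or more of the 9 libraries and were tested: 12 elongases, 9 reductases, 5 desaturases, 1 fatty acid synthase and the carboxylase. The other 13 comprised 3 elongases, 2 reductases, 7 desaturases and 1 fatty acid synthase. Their FPKM was at most 1.19 in any library and their count at most 186. The desaturase LOC108000091 was at 0 in every library, which allows up to 3 counts per library, or 0.0505 to 0.0902 CPM. No tested member passed the filter through a single group, but LOC107995792 and LOC108001947 were under an FPKM of 1 in all 3 pear libraries, and LOC108000079 reached 1 in only 3 libraries.

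Total counts ran from 43034759 to 64306245 per library. CPM below stands for counts scaled by library size and by TMM, which assumes that most genes do not differ between libraries. The composition of the libraries differed widely between the non-pollen group and the others. Royal jelly proteins, products of the hypopharyngeal glands of the head, took 32.1% to 32.4% of counts in non-pollen, 0.484% to 0.74% in pear and 0.264% to 0.301% in rapeseed libraries, with 7 of 9 tested genes lower and 2 higher in either pollen group. Gland enzymes that act on sugars took 4.92% to 5.2%, 0.417% to 0.467% and 0.525% to 0.536%. This list was matched on words of descriptions and also holds neutral alpha-glucosidase AB and a lysosomal alpha-glucosidase-like gene. Of its 16 tested genes 5 were higher and 7 lower in pear and 6 higher and 5 lower in rapeseed. Its genes with the highest non-pollen levels, LOC107997822, LOC107993622 and LOC108004028, had log2 fold changes of -5.20, -4.57 and -5.36 in pear and -4.98, -4.01 and -5.53 in rapeseed. Photoreceptor genes took 0.0802% to 0.0862%, 0.00652% to 0.00737% and 0.00625% to 0.00668%, and 8 of 9 were lower in either pollen group. Sarcomere genes took 3.72% to 3.79%, 7.91% to 8.15% and 7.67% to 7.7%. After scaling, 17 of 23 tested were higher and 4 lower in pear, and 17 higher and 5 lower in rapeseed. Their median log2 fold changes were 0.497 and 0.43. Synapse genes took 0.0813% to 0.0826%, 0.103% to 0.105% and 0.102% to 0.103%, although 15 of 18 were lower in pear and 13 in rapeseed after scaling. Fat body proteins took 0.0677% to 0.071%, 0.0752% to 0.0758% and 0.0845% to 0.0876%, with hexamerin-like LOC107995056 lower (log2 fold changes of -5.01 and -5.62) and vitellogenin-like LOC107996917 higher (0.89 and 0.69). No gene of these marker lists was at 0 in every library. The part that such tissue has in the changes of the lipid genes was not tested, and fewer cells of a type and less RNA per cell cannot be told apart in these bulk libraries.

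Elongases, desaturases and fatty acyl-CoA reductases each held genes that rose and genes that fell in the pollen-carrying groups, and by FPKM the leading elongase and the leading desaturase were other genes than in the non-pollen group. In pear libraries 9 of the 28 were higher and 13 lower than in non-pollen libraries at an adjusted p under 0.05 (edgeR's quasi-likelihood test), that is 32.1% and 46.4%, beside 28.5% and 27.2% of all 9259 genes tested. In rapeseed libraries 8 were higher and 17 lower, that is 28.6% and 60.7%, beside 29.3% and 30% of all genes. At least 2-fold changes were seen in pear for 2 members upwards and 7 downwards, where 1.22% and 5.19% of all genes were called with such changes. In rapeseed they were seen for 5 upwards and 6 downwards, where 1.97% and 5.3% of all genes were. The median log2 fold change of the 28 was -0.39 in pear and -0.46 in rapeseed, beside -0.005 and -0.02 over all genes tested. Of the 28, 8 were higher in both pollen groups, 13 were lower in both, and 1, the fatty acid synthase LOC108000565, was higher in pear and lower in rapeseed. These comparisons share the non-pollen libraries, and the share of all genes called alike in both was not counted.

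The number of falls depended on the scaling. With library totals alone, the median of all genes against non-pollen libraries was 0.53 (pear) and 0.47 (rapeseed) on the log2 scale, and 91.8% and 90% of all calls were higher, against 51.2% and 49.4% after TMM. Under that scaling 14 members were higher and 7 lower in pear (50% and 25%), and 12 and 7 in rapeseed (42.9% and 25%). Of all 9259 genes tested, 6946 were then higher and 620 lower in pear, and 6484 and 723 in rapeseed. All 9 and all 8 members that were higher after TMM were higher under that scaling too. The 7 members that were lower under both scalings were the same in both pollen groups: the elongases LOC107995792, LOC108001947 and LOC108000515, the reductases LOC107998959 and LOC107998963, and the desaturases LOC108000092 and LOC108000422. Every fold change below refers to TMM scaling unless stated.

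**Figure D1:**
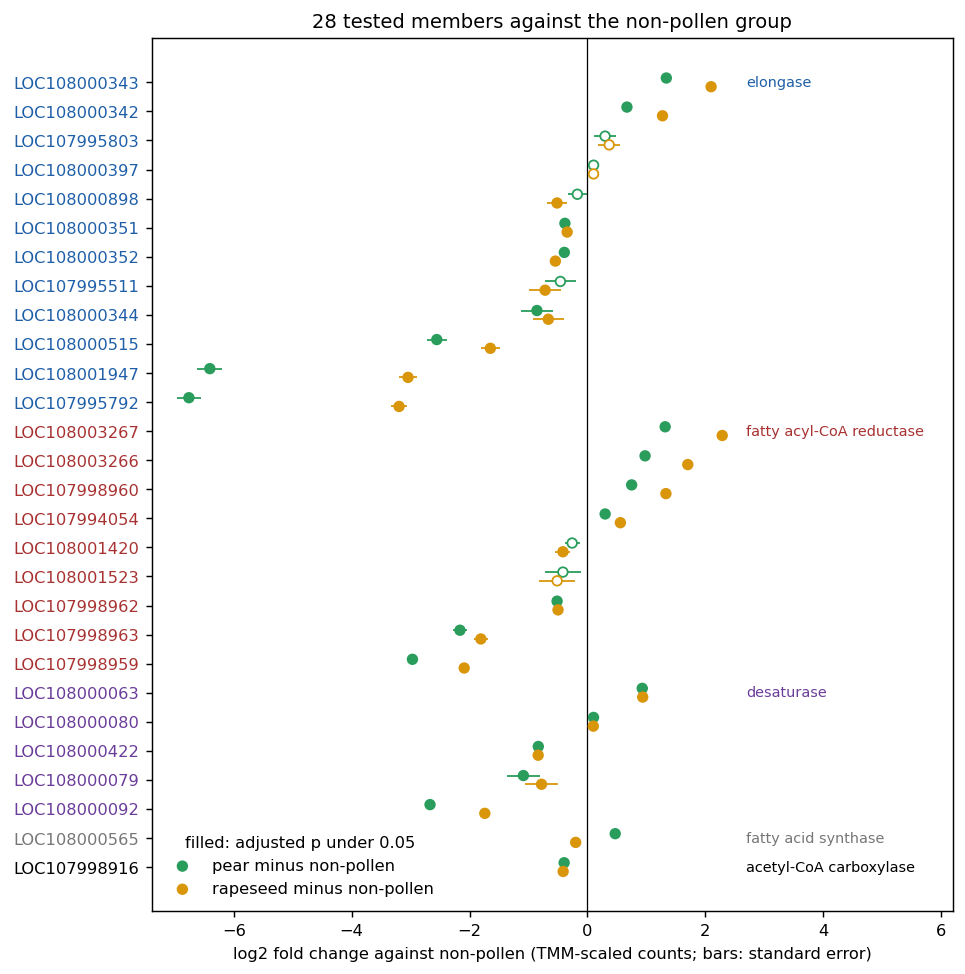
Log2 fold changes of the 28 tested members (rows, coloured by enzyme class) in pear and rapeseed against non-pollen libraries, from TMM-scaled counts, with standard errors as bars. Filled points have an adjusted p under 0.05. The elongases LOC107995792 and LOC108001947 lie farthest to the left, at -6.77 and -6.41 in pear, and the reductase LOC108003267 farthest to the right, at 2.29 in rapeseed.

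Of the enzymes that start the pathway, acetyl-CoA carboxylase was lower in both pollen groups after TMM, while fatty acid synthase was higher in pear and lower in rapeseed libraries. Acetyl-CoA carboxylase (LOC107998916) had 106, 104 and 99.7 CPM in non-pollen, 78.9, 80.5 and 76 in pear and 77.6, 75.1 and 79.8 in rapeseed libraries. Both pollen groups lay below the non-pollen group, with no overlap, and overlapped with each other. Its log2 fold change was -0.39 in pear (standard error 0.0441, adjusted p = 1.47e-07, edgeR's quasi-likelihood test) and -0.41 in rapeseed (standard error 0.044, adjusted p = 6.54e-08). With library totals alone it turned to 0.14 and 0.08, so its direction rests on the scaling.

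The fatty acid synthase LOC108000565 was the only member called lower in rapeseed than in pear libraries. It had 401, 413 and 407 CPM in non-pollen, 569, 567 and 559 in pear and 361, 350 and 353 in rapeseed libraries. The 3 groups did not overlap: pear libraries were highest and rapeseed libraries lowest. The log2 fold change was 0.47 in pear (standard error 0.0306, adjusted p = 2.4e-11, edgeR's quasi-likelihood test) and -0.20 in rapeseed (standard error 0.0306, adjusted p = 1.12e-05), and the latter turned to 0.29 with library totals alone. Between the pollen groups it was -0.67 in rapeseed against pear (standard error 0.0306, adjusted p = 5.97e-13), a call made under both scalings. The other gene of this class, LOC107993563, was barely expressed: it had 0.571, 0.35 and 0.449 CPM in non-pollen, 0.208, 0.399 and 0.659 in pear and 0.252, 0.515 and 0.67 in rapeseed libraries, and was not tested.

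Among the elongases, a pair described as elongase 6-like fell furthest of all members, and LOC108000343 rose to become the main elongase transcript. Of the 12 tested, 2 rose and 6 fell in pear, and 2 rose and 8 fell in rapeseed. Over all genes tested, 28.5% rose and 27.2% fell in pear, and 29.3% and 30% in rapeseed. With library totals alone 6 were higher and 3 lower in pear and 5 and 3 in rapeseed. Of all 9259 genes tested, 6946 were then higher and 620 lower in pear, and 6484 and 723 in rapeseed. Elongase 6 of mammals lengthens the products of fatty acid synthase, while other members of the family act on longer or on unsaturated chains.

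LOC107995792 (elongase 6-like) had 22.9, 24.8 and 23.6 CPM in non-pollen libraries, 0.132, 0.247 and 0.271 in pear libraries and 2.69, 2.8 and 2.29 in rapeseed libraries. LOC108001947, with the same description, had 21, 20.4 and 21 CPM, then 0.132, 0.228 and 0.368, and then 2.49, 2.52 and 2.54. For both genes the 3 groups were far apart, with non-pollen libraries highest, rapeseed libraries between and pear libraries near the floor, at 7 to 14 counts for LOC107995792 and 7 to 19 for LOC108001947. LOC107995792 was 109-fold lower in pear (log2 fold change -6.77, standard error 0.197, adjusted p = 3.15e-17, edgeR's quasi-likelihood test) and 9.17-fold lower in rapeseed (-3.20, standard error 0.143, adjusted p = 4.26e-14). LOC108001947 was 85-fold lower in pear (-6.41, standard error 0.214, adjusted p = 3.17e-16) and 8.25-fold lower in rapeseed (-3.05, standard error 0.159, adjusted p = 5.77e-13). The FPKM of LOC107995792 divided by that of LOC108001947 lay between 0.609 and 0.681 in non-pollen, 0.41 and 0.59 in pear and 0.503 and 0.623 in rapeseed libraries. The pear ratios rest on the 7 to 19 counts of these libraries.

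The elongase 6-like genes lie on different scaffolds of the deposited table, LOC107995792 on NW_016017456.1 from 16851 to 19615 and LOC108001947 on NW_016019652.1 from 841247 to 843265, both on the plus strand, of a build that is not given in the sources used here. In the RefSeq assembly AcerK_1.0 they neighbour each other on linkage group 9 with 0 genes between them. LOC107995792 also lies within LOC107995803, elongase 6, on the same strand. LOC107995803 had 2.88 to 3.94 CPM in non-pollen, 3.65 to 4.86 in pear and 4.22 to 4.94 in rapeseed libraries, with adjusted p = 0.192 in pear and 0.102 in rapeseed (edgeR's quasi-likelihood test). With library totals alone it was called higher in both groups, at log2 fold changes of 0.83 and 0.86. Reads of close copies and of overlapping genes can be assigned to either, and how such reads were counted is not given in the sources used here.

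LOC108000343, described as similar to the mosquito elongase AAEL008004, had 64.6, 66.6 and 67.3 CPM in non-pollen, 165, 166 and 172 in pear and 279, 288 and 286 in rapeseed libraries. The groups rose in that order without overlap. It was 2.53-fold higher in pear (log2 fold change 1.34, standard error 0.0377, adjusted p = 1.68e-17, edgeR's quasi-likelihood test) and 4.29-fold higher in rapeseed (2.101, standard error 0.0381, adjusted p = 5.12e-21). Its share of the summed FPKM of all 15 elongases, a measure that does not depend on the scaling between libraries, was 16.5% to 16.7% in non-pollen, 44% to 44.8% in pear and 53.2% to 53.5% in rapeseed libraries. In the same order the share of LOC108001947 averaged 15.9%, 0.19% and 1.44%.

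LOC108000342 (elongase 7-like) moved like LOC108000343, its neighbour on the opposite strand. It had 18.8, 20.8 and 24.1 CPM in non-pollen, 31.9, 32.7 and 37.3 in pear and 52.4, 50.7 and 51.6 in rapeseed libraries, again without overlap. The log2 fold change was 0.67 in pear (standard error 0.0817, adjusted p = 4.83e-07, edgeR's quasi-likelihood test) and 1.28 in rapeseed (standard error 0.0813, adjusted p = 1.54e-11). The annotated spans of LOC108000342 and LOC108000343 overlap by 25985 bases. The libraries mark strand, but whether counting used it is not given, so the changes of this pair cannot be told apart with certainty.

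LOC108000351 and LOC108000397, also of the AAEL008004-like type, were among the 4 elongases with the highest mean FPKM and changed little after TMM. LOC108000351 had 75.2, 80.4 and 69.5 CPM in non-pollen, 57.5, 58 and 57.4 in pear and 57.4, 58.1 and 62 in rapeseed libraries, below the non-pollen range in both pollen groups. Its log2 fold changes were -0.38 and -0.34 (adjusted p = 3.9e-06 and 1.32e-05, edgeR's quasi-likelihood test) and turned to 0.15 in both groups with library totals alone. LOC108000397 had 86.6, 100 and 103 CPM, then 107, 104 and 100, and then 104, 108 and 101. Its groups overlapped, and its log2 fold changes of 0.11 in pear and 0.10 in rapeseed did not pass the test (adjusted p = 0.101 and 0.0986). With library totals alone they were 0.64 and 0.596 and both passed, beside medians of 0.53 and 0.47 over all genes.

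Of the remaining elongases, LOC108000515 fell in both groups, from 11.3 to 13.6 CPM in non-pollen libraries to 1.77 to 2.4 in pear (log2 fold change -2.56, adjusted p = 2.82e-11, edgeR's quasi-likelihood test) and 3.72 to 4.36 in rapeseed libraries (-1.65, adjusted p = 1.17e-08). LOC108000352 had log2 fold changes of -0.39 and -0.54 after TMM, the first of which turned to 0.14 with library totals alone. The low-level genes LOC107995511, LOC108000344 and LOC108000898, at mean levels from 1.3 to 6.94 CPM, had log2 fold changes between -0.86 and -0.17, of which 4 of 6 passed the test. The calls of LOC107995511, LOC108000344 and LOC108000898 were each lost without 1 or more single libraries. None of these 4 calls remained with library totals alone, where LOC108000898 in pear turned to 0.365 and was called.

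Among the desaturases, LOC108000092 fell several-fold while LOC108000080 changed little after TMM. All 5 tested members were called in both comparisons, 2 higher and 3 lower. Over all genes tested, 28.5% were higher and 27.2% lower in pear, and 29.3% and 30% in rapeseed. By FPKM, which accounts for gene length, LOC108000092 led the class in non-pollen libraries and LOC108000080 in the pollen groups, while in CPM LOC108000080 was highest in all 9 libraries. Both are described as acyl-CoA Delta(11) desaturase-like, named for enzymes of moths that place a double bond in pheromone precursors.

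LOC108000092 had 302, 280 and 272 CPM in non-pollen, 46.4, 47.2 and 40.5 in pear and 88.3, 85 and 82.2 in rapeseed libraries. The non-pollen libraries were highest and the pear libraries lowest, with no overlap among the 3 groups. It was 6.37-fold lower in pear (log2 fold change -2.67, standard error 0.0554, adjusted p = 6.59e-20, edgeR's quasi-likelihood test) and 3.34-fold lower in rapeseed (-1.74, standard error 0.0528, adjusted p = 5.68e-17). LOC108000080 had 332, 341 and 339 CPM in non-pollen, 355, 363 and 370 in pear and 361, 364 and 360 in rapeseed libraries. It lay slightly higher in both pollen groups, without overlap with the non-pollen group, at log2 fold changes of 0.11 (adjusted p = 0.00815) and 0.10 (adjusted p = 0.00954), both below the shift that another scaling gives to all genes. The FPKM of LOC108000092 divided by that of LOC108000080, which needs no scaling between libraries, was 1.49 to 1.69 in non-pollen, 0.203 to 0.243 in pear and 0.424 to 0.455 in rapeseed libraries. Within the class, LOC108000092 took 53.2% to 55.9% of the summed FPKM in non-pollen libraries and averaged 14.5% in pear and 24.5% in rapeseed libraries, while LOC108000080 averaged 34.7%, 63.5% and 56%.

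LOC108000063, a partial Delta(11) desaturase, had 16.6, 13.1 and 15 CPM in non-pollen, 27.3, 28.5 and 29.3 in pear and 26.3, 29.8 and 29.5 in rapeseed libraries. Both pollen groups lay above the non-pollen group and overlapped with each other. Its log2 fold change was 0.93 in pear (standard error 0.0897, adjusted p = 1.44e-08, edgeR's quasi-likelihood test) and 0.94 in rapeseed (standard error 0.0895, adjusted p = 1.05e-08). The whole of its 2141 bases lies within LOC108000080 on the opposite strand, so reads of the more abundant gene may be counted in it if counting did not use strand. The sphingolipid desaturase LOC108000422 had 27.2, 28 and 26.4 CPM in non-pollen, 16.7, 15.3 and 13.8 in pear and 15.2, 14.8 and 15.8 in rapeseed libraries. It lay lower in both pollen groups, without overlap with the non-pollen group, at log2 fold changes of -0.83 (adjusted p = 6.38e-08) and -0.84 (adjusted p = 5.09e-08). LOC108000079 had low levels, 2.88 to 3.53 CPM in non-pollen, 0.969 to 2.17 in pear and 1.48 to 2.47 in rapeseed libraries, with log2 fold changes of -1.09 and -0.78. Its call in rapeseed was lost without non-pollen replicate 2 (-0.73) or 3 (-0.73) or rapeseed replicate 1 (-0.75) or 3 (-0.62). With library totals alone it had -0.55 and -0.29 and was called in neither group.

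The 7 untested desaturases had summed counts of 0 to 168 over the 9 libraries. They include cholesterol 7-desaturase (LOC108001271), which in flies acts early in ecdysone synthesis, and stearoyl-CoA desaturase 5-like (LOC107995523).

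**Figure D2:**
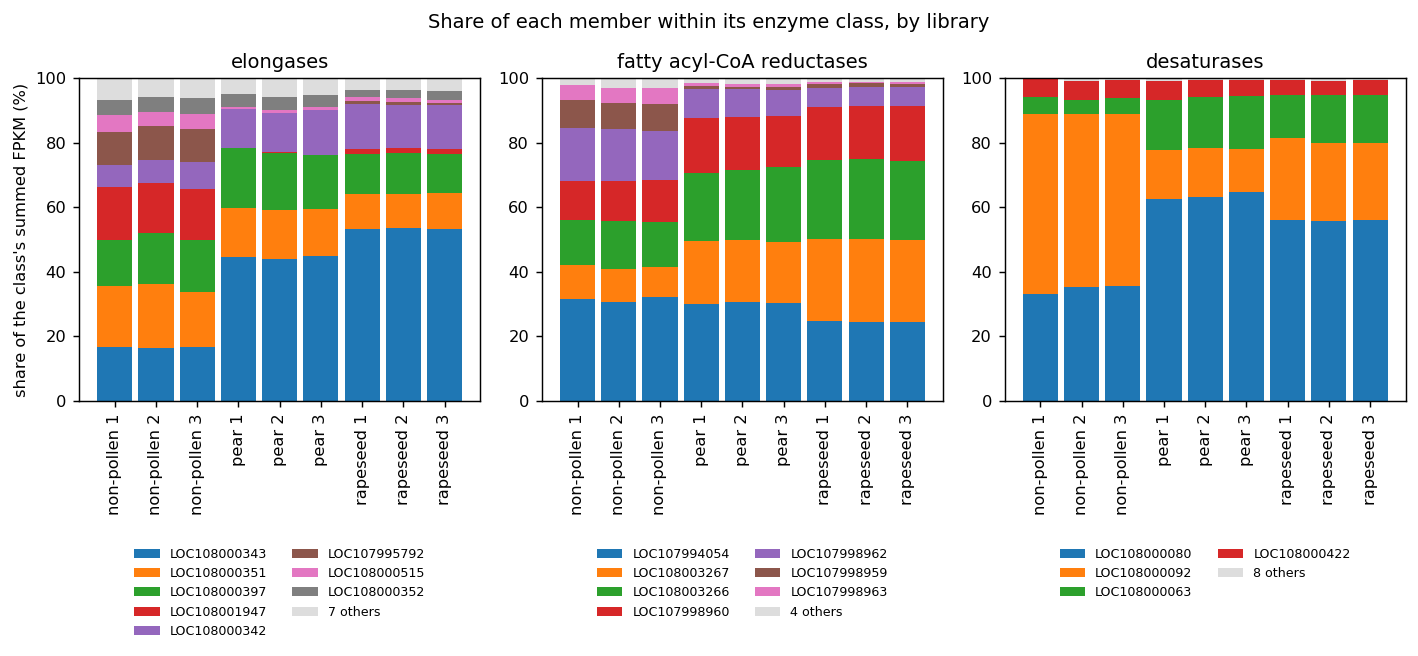
Share (%) of each member in the summed FPKM of its enzyme class, per library, for elongases, fatty acyl-CoA reductases and desaturases. Members that average at least 4% in a group are coloured and the rest are grey. LOC108000343 grows from 16.6% of elongase FPKM in non-pollen to 53.3% in rapeseed libraries, and LOC108000092 shrinks from 54.3% of desaturase FPKM in non-pollen to 14.5% in pear libraries.

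The fatty acyl-CoA reductases held LOC108003267, the member with the largest rise in rapeseed libraries, and also a pair that fell several-fold, LOC107998959 and LOC107998963. Of the 9 tested, 4 rose in both pollen groups, 3 fell in pear and 4 in rapeseed, against 2 in each with library totals alone. After TMM, 28.5% of all genes tested rose and 27.2% fell in pear, and 29.3% and 30% in rapeseed. With library totals alone, 620 of all 9259 genes tested fell in pear and 723 in rapeseed. The 4 that rose, LOC108003267, LOC108003266, LOC107998960 and LOC107994054, are all described as putative reductase CG5065 after a *Drosophila* gene, and so are LOC107998959 and LOC107998963, which fell.

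LOC108003267 had 54.2, 52.6 and 49 CPM in non-pollen, 130, 128 and 130 in pear and 250, 255 and 255 in rapeseed libraries. LOC108003266, on the same scaffold, had 89.7, 96.2 and 87.1 CPM, then 171, 176 and 192, and then 295, 298 and 297. Both rose from non-pollen through pear to rapeseed libraries with no overlap. LOC108003267 was 2.5-fold higher in pear (log2 fold change 1.32, standard error 0.0417, adjusted p = 1.32e-16, edgeR's quasi-likelihood test) and 4.89-fold higher in rapeseed (2.29, standard error 0.0422, adjusted p = 6.71e-21). LOC108003266 was 1.97-fold higher in pear (0.98, standard error 0.045, adjusted p = 7.81e-14) and 3.26-fold higher in rapeseed (1.71, standard error 0.0453, adjusted p = 6.07e-18).

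LOC107998960 followed the same order, with 77.3, 78.9 and 83.4 CPM in non-pollen, 137, 135 and 131 in pear and 198, 202 and 204 in rapeseed libraries (log2 fold changes of 0.75 and 1.33, standard errors of 0.0402 in both, adjusted p = 9.58e-13 and 5.19e-17, edgeR's quasi-likelihood test). LOC107994054, which led the class in non-pollen libraries with a mean of 31.6% of its FPKM, had 212, 205 and 213 CPM, then 253, 262 and 261, and then 310, 311 and 308. Its 3 groups did not overlap, and its log2 fold changes were 0.30 (standard error 0.0331, adjusted p = 1.06e-07) and 0.56 (standard error 0.033, adjusted p = 4.09e-12). In rapeseed libraries LOC108003267 averaged 25.5% of the class, against 24.6% for LOC107994054.

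LOC107998959 had 78.1, 74.3 and 75.4 CPM in non-pollen, 9.45, 8.69 and 10.9 in pear and 16.8, 18.6 and 18.1 in rapeseed libraries. The pear libraries were lowest, and no group overlapped with another. It was 7.83-fold lower in pear (log2 fold change -2.97, standard error 0.0809, adjusted p = 9.32e-18, edgeR's quasi-likelihood test) and 4.26-fold lower in rapeseed (-2.09, standard error 0.0764, adjusted p = 1.33e-15). LOC107998963 had 25.4, 24.3 and 26.6 CPM, then 6.21, 5.28 and 5.52, and then 8.73, 5.98 and 7.03. Both pollen groups were far below the non-pollen group and overlapped with each other, with log2 fold changes of -2.16 (standard error 0.126, adjusted p = 4.23e-12) and -1.81 (standard error 0.123, adjusted p = 4.59e-11).

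Among the other reductases, LOC107998962 had 101 to 111 CPM in non-pollen, 70.7 to 78.7 in pear and 75.7 to 75.9 in rapeseed libraries, with log2 fold changes of -0.51 and -0.50, which became 0.02 and -0.01 with library totals alone. LOC108001420 had log2 fold changes of -0.26 (adjusted p = 0.0927, edgeR's quasi-likelihood test) and -0.41 (adjusted p = 0.00845), and the latter became 0.08 with library totals alone and -0.33, no longer past the threshold, without non-pollen replicate 2. LOC108001523 was not called in either group, but passed the threshold in both, at -0.78 and -0.88, without non-pollen replicate 1, its lowest non-pollen library at 1.83 CPM against 5.39 and 6.66.

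**Figure D3:**
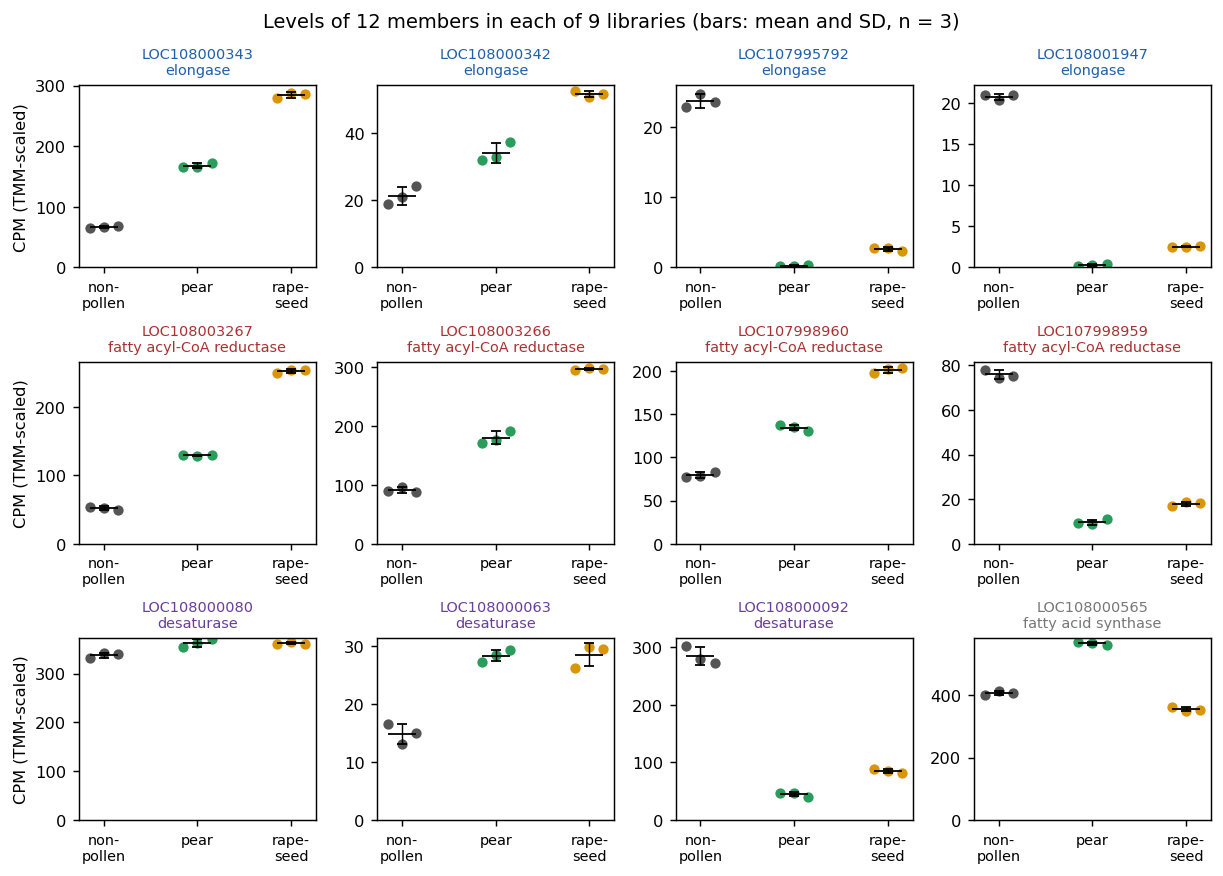
CPM after TMM scaling of 12 members in each of the 9 libraries (points), with the mean and SD of the 3 libraries of a group as bars. All vertical axes start at 0. The groups are ordered non-pollen, pear, rapeseed upwards for LOC108000343, LOC108000342, LOC108003267, LOC108003266 and LOC107998960, and pear is lowest for LOC107995792, LOC108001947, LOC107998959 and LOC108000092 but highest for LOC108000565.

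Several of these genes stand side by side on the scaffolds, where some neighbours shared a direction and others did not. The reductases LOC107998959, LOC107998962, LOC107998963 and LOC107998960 follow each other on scaffold NW_016019297.1 from 959682 to 1003486, and acetyl-CoA carboxylase lies on the same scaffold from 1084211 to 1107280. LOC107998959, LOC107998962 and LOC107998963 were lower in both pollen groups, while LOC107998960 at the end of the row rose. With library totals alone LOC107998962 was not called in either group. The FPKM of LOC107998959 divided by that of LOC107998960 was 0.642 to 0.717 in non-pollen, 0.0456 to 0.059 in pear and 0.0599 to 0.0654 in rapeseed libraries. This pair was chosen after its values were seen.

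Of the 12 desaturases, 9 are among the 39 genes of scaffold NW_016019408.1, between 33174 and 261874. There 5 were not tested, LOC108000092 and LOC108000079 fell, and LOC108000063, which lies within LOC108000080, rose. LOC108000080 itself was called higher but changed little after TMM, at 0.105 in pear and 0.101 in rapeseed. With library totals alone it had 0.639 and 0.592, and LOC108000079 was not called. Of the 15 elongases, 8 lie in order on scaffold NW_016019441.1 from 1662465 to 1910012. After TMM, LOC108000515 and LOC108000344, at the start of this row, were lower in both pollen groups, LOC108000342 and LOC108000343 rose, LOC108000351 and LOC108000352 were lower, and LOC108000397 at its end was not called. With library totals alone LOC108000344 and LOC108000352 were not called, and LOC108000351 and LOC108000397 were called higher in both groups. The calls of LOC108000344 were also lost without single libraries. The FPKM of LOC108000515 divided by that of LOC108000343 was 0.259 to 0.321 in non-pollen, 0.0163 to 0.0212 in pear and 0.0197 to 0.023 in rapeseed libraries, a pair also chosen after its values were seen.

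**Figure D4:**
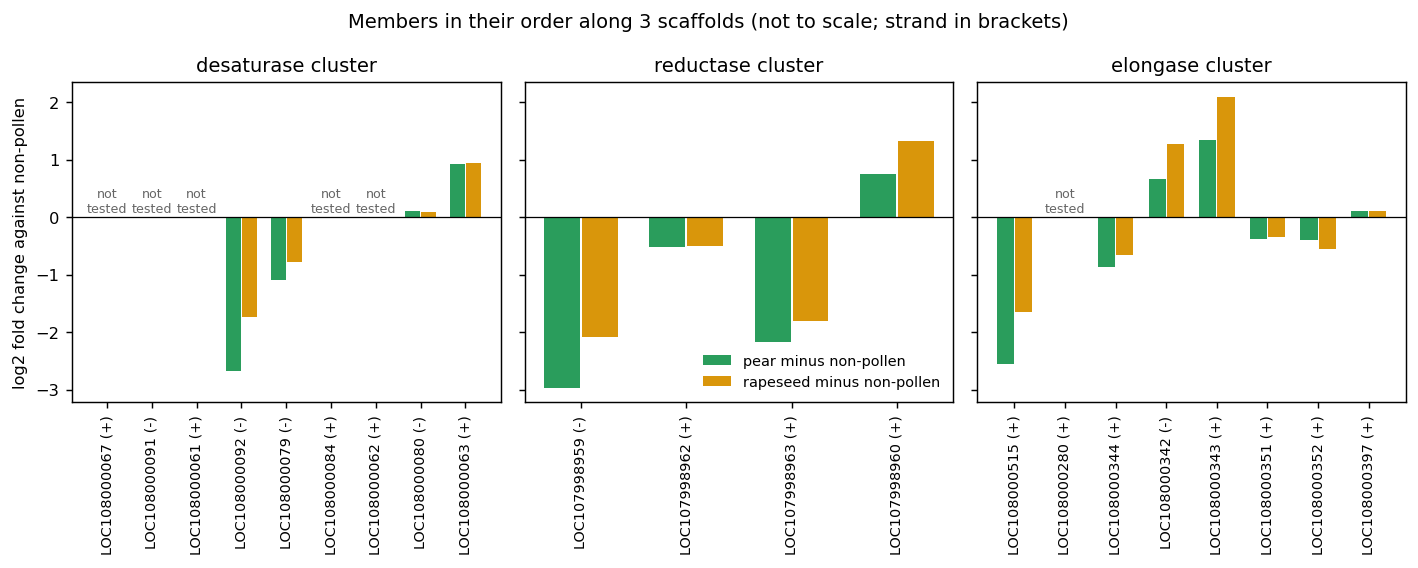
Log2 fold changes in pear and rapeseed against non-pollen libraries for 9 desaturases, 4 fatty acyl-CoA reductases and 8 elongases in their order along 3 scaffolds, with the strand in brackets and distances not to scale. Genes marked as not tested were under the filter. Bars below 0 (LOC108000092, LOC107998959, LOC108000515) and above 0 (LOC108000063, LOC107998960, LOC108000343) stand in the same row of genes.

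Class sums were also compared. From non-pollen through pear to rapeseed libraries, reductases summed to 658 ± 3.97, 806 ± 9.07 and 1174 ± 5.43 CPM (SD, n = 3 each). Elongases summed to 372 ± 12.5, 409 ± 3.69 and 549 ± 8.69 CPM (SD, n = 3 each). Desaturases summed to 668 ± 12.5, 453 ± 4.55 and 493 ± 3.56 CPM (SD, n = 3 each), so this class was highest in non-pollen libraries after TMM. No group overlapped with another in any of these sums, which were not tested. With library totals alone, desaturases summed to 520 to 533 CPM in non-pollen, 509 to 522 in pear and 543 to 550 in rapeseed libraries, so rapeseed became highest and the other groups overlapped. Reductases and elongases kept their order under that scaling, at 511 to 527, 912 to 930 and 1298 to 1305 CPM and at 276 to 304, 462 to 473 and 599 to 614 CPM.

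Between pear and rapeseed libraries, 12 of the 28 members differed. In rapeseed libraries 11 were higher than in pear libraries and 1, the fatty acid synthase LOC108000565, was lower (edgeR's quasi-likelihood test). These are 39.3% and 3.57% of the tested members, beside 7.94% and 4.96% of all genes, and the same 12 were called with library totals alone. A change upwards of at least 2-fold was seen in 2 members, LOC107995792 and LOC108001947, where 0.335% of all genes were called with such a change. The 11 comprised 5 elongases, 5 reductases and the desaturase LOC108000092. The median log2 fold change of the 28 was 0.13, beside -0.007 over all genes.

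The genes that were higher in rapeseed than in pear libraries included both those above and those below their non-pollen level. LOC107995792 was 11.9-fold higher (log2 fold change 3.57, standard error 0.217, adjusted p = 8.87e-11, edgeR's quasi-likelihood test) and LOC108001947 10.3-fold higher (3.37, standard error 0.23, adjusted p = 6.38e-10), from the 7 to 19 counts of the pear libraries given above. LOC107998959, LOC108000515 and LOC108000092 also lay below the non-pollen level in both groups and nearer to it in rapeseed, at 0.88 (standard error 0.0806, adjusted p = 6.31e-08), 0.91 (standard error 0.167, adjusted p = 0.000619) and 0.93 (standard error 0.0543, adjusted p = 4.49e-11). LOC108003267 was 1.96-fold higher (0.97, standard error 0.0395, adjusted p = 8.85e-14), LOC108000343 1.69-fold (0.76, standard error 0.0359, adjusted p = 1.09e-12) and LOC108003266 1.65-fold (0.73, standard error 0.0435, adjusted p = 7.38e-11), and these lay above the non-pollen level in both groups. LOC108000342, LOC107998960 and LOC107994054 differed by 0.60, 0.58 and 0.26 on the log2 scale (adjusted p = 1.01e-05, 4.64e-10 and 6.82e-06). Beside these differences, royal jelly proteins took a smaller share of counts in rapeseed than in pear libraries and gland enzymes a larger one, as given above, and their part was not tested.

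Acetyl-CoA carboxylase, 4 of 5 desaturases, 4 of 9 reductases and 7 of 12 elongases did not pass the test between the pollen groups. The log2 fold changes were -0.02 for LOC107998916, -0.004 for LOC108000080, 0.01 for LOC108000063 and -0.002 for LOC108000422, with standard errors of 0.044, 0.0315, 0.0863 and 0.0886. LOC107998963, at 0.36 (adjusted p = 0.0765, edgeR's quasi-likelihood test), passed the threshold with DESeq2, and also without rapeseed replicate 2, at 0.48.

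Genes that work beside these enzymes were read from lists matched on descriptions. Every list count after TMM stands beside the shares of all genes tested. These were 28.5% higher and 27.2% lower in pear, and 29.3% and 30% in rapeseed libraries. List counts with library totals alone stand beside another background. Of all 9259 genes tested, 6946 were then higher and 620 lower in pear, and 6484 and 723 in rapeseed. Whether a list as a whole differed from genes at large was not tested. The elongase supplies the first reaction of an elongation cycle whose other steps are a ketoreductase, a dehydratase and an enoyl reductase. Of 4 such partner genes 3 fell in both pollen groups under either scaling. Very-long-chain 3-oxoacyl-CoA reductase-like (LOC107999730) went from 38.6 ± 2.98 CPM (SD, n = 3) to 12.1 ± 0.698 in pear and 14.8 ± 1.38 in rapeseed libraries, log2 fold changes of -1.68 and -1.38 (adjusted p = 1.6e-12 and 2.71e-11, edgeR's quasi-likelihood test). Trans-2,3-enoyl-CoA reductase (LOC107996601) had -1.30 and -1.18, and the dehydratase hpo-8 (LOC107993088) -1.26 and -1.14. The other dehydratase gene, LOC107997390, had -0.03 and -0.13 and was not called.

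The list of hydrocarbon-forming P450 and its electron supply had 3 of 6 tested genes higher and 2 lower in pear, and 4 higher and 1 lower in rapeseed libraries, with a median of 0.10 and 0.25. With library totals alone 5 were higher in either. Cytochrome P450 4g15 (LOC108000423), of the subfamily that forms hydrocarbons from aldehydes in flies, had 9, 31 and 55 counts in non-pollen, 123, 171 and 145 in pear and 154, 131 and 117 in rapeseed libraries. Both pollen groups lay above the non-pollen group in CPM without overlap, and its log2 fold changes were 2.02 (standard error 0.333, adjusted p = 2.8e-05, edgeR's quasi-likelihood test) and 1.77 (standard error 0.333, adjusted p = 0.000116). Its level was low, at a mean FPKM of 0.234, 1.44 and 1.18. NADPH--cytochrome P450 reductase (LOC108000012), which passes electrons to P450 enzymes, had 0.12 in pear and 0.39 in rapeseed (adjusted p = 0.00264 and 9.48e-10). Cytochrome b5-like (LOC107999153), an electron donor of desaturases, had 0.07, which did not pass, and 0.29 (adjusted p = 3.65e-07), and NADH-cytochrome b5 reductase 2 (LOC108001664) had -0.27 and -0.23 after TMM, less than the shift of all genes between the scalings.

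Genes that supply acetyl-CoA, malonyl-CoA and NADPH moved little: 2 of 13 were higher and 4 lower in pear, and 3 higher and 4 lower in rapeseed libraries, while with library totals alone 10 were higher in either. ATP-citrate synthase (LOC108000656), which makes cytosolic acetyl-CoA, had log2 fold changes of -0.48 and -0.43 after TMM. Glucose-6-phosphate 1-dehydrogenase (LOC107996793), a source of NADPH, had 0.20 and 0.36, and acetyl-coenzyme A synthetase (LOC107994221) 0.41 and 0.49.

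Among 14 genes for fatty acid activation, binding and transport, 2 were higher and 7 lower in pear, and 3 higher and 7 lower in rapeseed libraries. With library totals alone 10 and 7 were higher and 3 lower in each. Long-chain fatty acid transport protein 4 (LOC107996091) and its like LOC108000478, proteins that take up and activate fatty acids, had -1.06 and -1.39 in pear and -0.999 and -0.93 in rapeseed. Fatty acid-binding protein homolog 9-like (LOC107994715) had -1.38 and -1.52. Of 4 tested regulators, sterol regulatory element-binding protein 1 (LOC108002146), which in flies drives genes of fatty acid synthesis, rose from 482 ± 10.1 CPM (SD, n = 3) to 639 ± 15.9 and 636 ± 9.85, log2 fold changes of 0.41 and 0.40 (adjusted p = 5.94e-10 and 6.26e-10, edgeR's quasi-likelihood test). Its cleavage-activating protein-like gene LOC107996444 rose in pear (0.24, adjusted p = 0.00841) and had 0.04 in rapeseed, which did not pass.

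**Figure D5:**
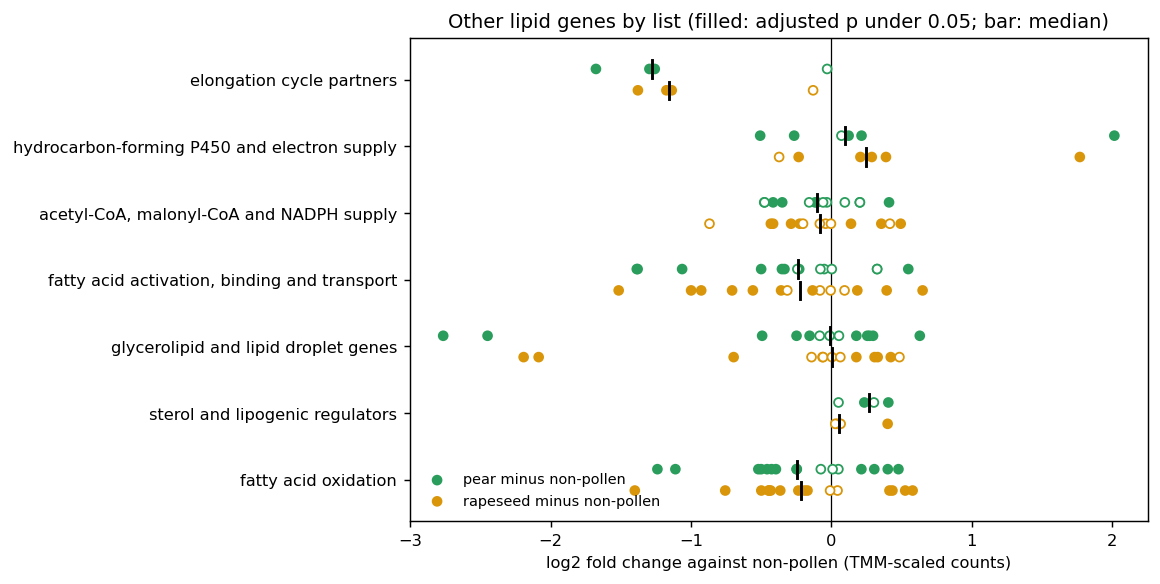
Log2 fold changes of the tested genes of 7 lists of other lipid genes in pear and rapeseed against non-pollen libraries, one point per gene, with the median as a bar. Filled points have an adjusted p under 0.05. Of the 4 elongation cycle partners 3 lie below -1 in both groups, and the acyltransferase LOC107995700 lies lowest of all, at -2.77 in pear.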

How the data were processed

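Per the labels, RNA of *A. cerana* proboscis was poly(A)-selected, made into strand-marked libraries and sequenced in pairs. The authors deposited a table of whole-number counts per gene and FPKM for each library. Tools listed in the submitters' processing notes, with no role stated, are StringTie 2.1.6, HISAT2 2.2.1, edgeR, DESeq2 and cutadapt 1.9. Not given in the sources used here were the genome build, the use of strand in counting and the treatment of reads matching several genes. The paper that accompanies the deposit describes other libraries, so groups come from the labels alone.

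Members were taken by the words in their descriptions. Members and lists were chosen with earlier results of these data known. A RefSeq gene table of AcerK_1.0, used for neighbours only, held 38 of the 41. Deposited counts were tested with edgeR 4.0.16 (R 4.3.3), TMM scaling, 3 groups in one fit and Benjamini-Hochberg adjustment over the 9259 genes that reached an FPKM of 1 in 3 or more libraries, at a threshold of 0.05. The standard error is the log2 fold change divided by the square root of its F. The fit was tested on simulated data. The biological coefficient of variation was 7.92%, and replicate pairs differed by more than sampling noise (chi-square per degree of freedom 6.03 to 14.2). Alternatives were library totals, TMM without royal jelly and gland enzyme genes, DESeq2 1.42.0, no filter, only the groups compared, a replicate block and each library left out.

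Values per library are given for all members of classes of at most 3, for the 4 members of each other class with the highest mean FPKM, and for up to 4 called members in each direction of a comparison with the largest change and no overlap. Of each list, up to 3 called genes with the lowest adjusted p are named. LOC107997390, LOC107995698, cytochrome P450 4g15 and the low-level members named were chosen after their values were seen. The ratios between members were also chosen after seeing values.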

Additional observations from a re-analysis of the deposited data

Results flagged for a closer look

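The effect against non-pollen libraries differed between pear and rapeseed for 12 members, by the test of rapeseed against pear (edgeR's quasi-likelihood test, 3 libraries against 3, no overlap between the groups). Of the tested members 39.3% were higher and 3.57% lower, beside 7.94% and 4.96% of all genes. The share of all genes without overlap was not counted. The log2 difference was 3.57 for the elongase LOC107995792, 3.37 for LOC108001947, 0.91 for LOC108000515, 0.76 for LOC108000343 and 0.60 for LOC108000342. It was 0.97 for the reductase LOC108003267, 0.88 for LOC107998959, 0.73 for LOC108003266, 0.58 for LOC107998960 and 0.26 for LOC107994054. It was 0.93 for the desaturase LOC108000092 and -0.67 for the fatty acid synthase LOC108000565.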

How the results depend on the processing

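Of 1260 member values recomputed under the alternatives, 24 lost the call, 10 gained it, 9 reversed and 1217 were counted as the same. A reversal was a change of sign in a value called in either fit. Changes of sign without a call in either fit were counted as the same, such as LOC107995511 in pear (-0.458 after TMM, 0.077 with library totals alone). All 9 reversals came with library totals alone: LOC108000351 (0.15 in pear and 0.15 in rapeseed on the log2 scale), LOC108000352 (0.14 in pear), LOC108000898 (0.37 in pear), LOC107998962 (0.022 in pear), LOC108001420 (0.075 in rapeseed), LOC108000565 (0.29 in rapeseed) and LOC107998916 (0.142 in pear and 0.081 in rapeseed). That scaling also gave 14 members higher and 7 lower in pear and 7 lower in rapeseed, since it raises the median of all genes. Of all 9259 genes tested, 6946 were then higher and 620 lower in pear, and 723 lower in rapeseed. TMM without royal jelly and gland enzyme genes gave the same counts of members as with them. Without single libraries, 9 to 10 members were higher and 12 to 14 lower in pear, 8 to 9 and 14 to 17 in rapeseed, and 11 to 12 and 1 in rapeseed against pear. Single libraries ended these calls: LOC107995511 in rapeseed (-0.59 without non-pollen replicate 1, -0.69 without 2, -0.59 without rapeseed replicate 1 and -0.61 without 2), LOC108000344 in pear (-0.72 without non-pollen replicate 3, -0.65 without pear replicate 1, -0.73 without 3) and in rapeseed (-0.53 without non-pollen replicate 3, -0.56 without rapeseed replicate 1, -0.62 without 3), and LOC108000898 in rapeseed (-0.40 without non-pollen replicate 1). The rapeseed call of LOC108000079 also ended, at -0.73 without non-pollen replicate 2 or 3, -0.75 without rapeseed replicate 1 and -0.62 without 3. That of LOC108001420 ended at -0.33 without non-pollen replicate 2. LOC108000397 was called in both groups, at 0.15, without non-pollen replicate 3. The replicate numbers did not pair the libraries (correlations of -0.115 to 0.0491 between libraries with the same number), and the replicate block gave the same counts, 9 and 13 in pear, 8 and 17 in rapeseed, 11 and 1 between them. Depth limits the low-level members, including the elongase 6-like genes in pear libraries, at 7 to 19 counts.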

Other observations

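Counts are given for other lipid genes that the comparisons above do not include. Of 13 tested glycerolipid and lipid droplet genes, 5 were higher and 5 lower in pear and 4 higher and 3 lower in rapeseed than in non-pollen libraries. Over all genes these shares were 28.5% and 27.2% in pear and 29.3% and 30% in rapeseed. With library totals alone 10 of the 13 were higher and 2 lower in each. Under that scaling 6946 of all 9259 genes tested were higher and 620 lower in pear, and 6484 and 723 in rapeseed. A pair of 1-acyl-sn-glycerol-3-phosphate acyltransferase alpha-like genes, which make phosphatidic acid, changed most: LOC107995699 fell from 38.3 ± 2.29 CPM (SD, n = 3) to 7.01 ± 0.469 and 9.02 ± 0.644 (log2 fold changes of -2.45 and -2.09), and LOC107995700 had -2.77 and -2.19 (adjusted p = 7.16e-12 and 1.39e-10, edgeR's quasi-likelihood test). LOC107995698, with the same description and a mean of 2.01 CPM in non-pollen libraries, went the other way. It had 0.63 in pear and 0.485 in rapeseed, of which only the first passed (adjusted p = 0.0316 and 0.0901, edgeR's quasi-likelihood test). Phosphatidate phosphatase LPIN3 (LOC108002993) had 0.30 and 0.42. Of 16 fatty acid oxidation genes, 4 were higher and 9 lower in pear and 4 higher and 10 lower in rapeseed, turning to 10 higher and 2 lower in each with library totals alone. Mitochondrial 3-ketoacyl-CoA thiolase (LOC107999558), the last step of beta-oxidation, had -1.11 and -0.76, peroxisomal acyl-coenzyme A oxidase 3-like (LOC107994105) -1.24 and -1.40, and short/branched chain specific acyl-CoA dehydrogenase (LOC108000837) 0.40 and 0.58.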
